A study of Mus musculus with 6 samples.

Results

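The collagen genes of cultured mouse astrocytes were taken from a bulk poly-A RNA sequencing table as all gene symbols made of Col, 1 or 2 digits, the letter a and 1 or 2 digits. The rule found 44 of the 24318 gene symbols in the table. The study compared cultured brain astrocytes of wild-type genotype (WT, 3 libraries) with ADGRB1 knockout astrocytes (KO, 3 libraries). ADGRB1 is an adhesion G protein-coupled receptor with a known role in engulfment. The labels name no strain, age, time in culture or kind of deletion, and give no sign of whether the libraries stem from different animals or cultures. Each p-value is therefore set against a spread between libraries that can be technical. The libraries held 17460086 to 20334440 counts each. Adgrb1 itself was at 299, 363 and 317 CPM (counts relative to library size, scaled by the TMM method of edgeR) in WT and at 158, 140 and 117 CPM in KO, without overlap (edgeR adjusted p = 0.0684).

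Collagens are proteins with a triple helix of chains that repeat glycine at every turn of the helix. The fibrillar types form the ropes of connective tissue, type IV forms the sheet-like network of basement membranes, and the FACIT types (fibril-associated collagens with interrupted triple helices) sit on the surface of fibrils. In the brain most collagen lies in the meninges and in the basement membranes around vessels, where astrocyte endfeet touch it, while the tissue between cells has little fibrillar collagen. The chains of a type are often encoded by separate genes, and a helix can hold identical or different chains.

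The 44 genes were 11 fibrillar genes, 6 genes of the basement membrane network, 6 of the beaded filaments of type VI, 9 FACIT genes, 2 multiplexins, 4 transmembrane collagens, 3 short-chain collagens and 3 others. In all, 30 genes had enough counts to be tested. The other 14 held between 1 and 38 counts summed over the 6 libraries and at most 1.37 CPM in any library. They were Col3a1, Col4a3, Col6a1, Col6a2, Col6a4, Col6a6, Col8a1, Col10a1, Col13a1, Col14a1, Col17a1, Col19a1, Col22a1 and Col25a1. Of the 30 tested genes, 15 had a mean of at least 10 CPM.

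Promoter sequence was at hand for 35 of the 44 genes (RefSeq, GRCm38.p6). The windows below hold the 250 bases before the RefSeq start of 6 genes, from 5′ to 3′ on the gene's strand. Col11a1, Col9a2, Col23a1 and Col28a1 are shown because their levels ran apart between libraries of the same genotype, and Col16a1 and Col11a2 because theirs stayed close. Capitals mark matches on either strand to GGGCGG (the GC box), to TATAAA (the TATA box), and to ACAAAG or ACAATG (letters that SOX factors can bind). The windows lie at chr3:114030290-114030539 (plus strand), chr4:121039316-121039565 (plus strand), chr11:51289670-51289919 (plus strand), chr6:8192618-8192867 (minus strand), chr4:130047590-130047839 (plus strand) and chr17:34038888-34039137 (plus strand).
Col11a1: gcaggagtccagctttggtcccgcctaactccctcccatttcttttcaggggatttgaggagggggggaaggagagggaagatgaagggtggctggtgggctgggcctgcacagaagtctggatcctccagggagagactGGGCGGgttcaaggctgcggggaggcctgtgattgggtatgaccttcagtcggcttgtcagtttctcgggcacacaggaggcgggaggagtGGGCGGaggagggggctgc
Col9a2: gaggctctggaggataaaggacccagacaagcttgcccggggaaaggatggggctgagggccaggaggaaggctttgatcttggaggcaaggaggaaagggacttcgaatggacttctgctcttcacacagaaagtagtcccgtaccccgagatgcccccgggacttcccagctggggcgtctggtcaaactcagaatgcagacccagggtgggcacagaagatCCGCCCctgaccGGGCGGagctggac
Col23a1: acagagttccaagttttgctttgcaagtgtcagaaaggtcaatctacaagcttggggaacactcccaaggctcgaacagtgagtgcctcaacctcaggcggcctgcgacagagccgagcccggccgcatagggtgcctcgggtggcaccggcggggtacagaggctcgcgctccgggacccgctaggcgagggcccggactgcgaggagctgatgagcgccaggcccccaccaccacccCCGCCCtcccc
Col28a1: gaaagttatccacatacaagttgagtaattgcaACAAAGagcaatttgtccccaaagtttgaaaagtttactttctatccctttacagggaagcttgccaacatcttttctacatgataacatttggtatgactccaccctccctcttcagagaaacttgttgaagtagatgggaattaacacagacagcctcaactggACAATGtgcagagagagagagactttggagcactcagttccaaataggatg
Col16a1: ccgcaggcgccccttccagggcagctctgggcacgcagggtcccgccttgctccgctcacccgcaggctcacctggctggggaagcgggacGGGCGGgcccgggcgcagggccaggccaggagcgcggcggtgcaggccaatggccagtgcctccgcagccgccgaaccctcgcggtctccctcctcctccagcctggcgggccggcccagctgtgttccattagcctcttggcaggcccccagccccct
Col11a2: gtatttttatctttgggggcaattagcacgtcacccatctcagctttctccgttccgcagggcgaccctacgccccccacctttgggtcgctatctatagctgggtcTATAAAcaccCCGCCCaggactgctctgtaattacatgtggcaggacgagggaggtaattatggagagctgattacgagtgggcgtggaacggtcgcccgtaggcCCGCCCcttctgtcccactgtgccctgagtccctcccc
The GC box letters were found in 21 of the 35 collagen windows and in 32.9% of the 27025 promoter windows of all genes. TATAAA was found in 5 of the 35 and in 13.0% of all, ACAAAG in 4 of the 35 and in 16.5%, and ACAATG in 1 of the 35 and in 10.99%. Of the 6 windows shown, Col28a1 has no GC box letters and no CG pair, and Col11a2 has TATAAA. These are matches of letters in a short window and say nothing about which factor binds there.

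Col11a2, a chain of fibrillar type XI collagen, had the highest level of the 44 genes in every library. It stood at 340, 281 and 300 CPM in WT replicates 1 to 3 and at 368, 369 and 272 CPM in KO replicates 1 to 3. The groups overlapped, with the lowest value in KO replicate 3. The log2 ratio of KO over WT was 0.13 ± 0.16 (SE, edgeR quasi-likelihood test, adjusted p = 0.868 over all genes tested). In GRCm38 the gene spans positions 34039437 to 34066685 of chromosome 17.

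Col9a3, a chain of the FACIT type IX collagen that decorates type II and XI fibrils, came next with 98.3, 105 and 101 CPM in WT and 114, 122 and 94.3 CPM in KO. Its groups overlapped as well, and the log2 fold change was 0.12 ± 0.14 (SE, edgeR adjusted p = 0.868). An exon of Col9a3 overlaps Tcfl5 on the opposite strand, and its level is uncertain because the sources used here do not give how strand was counted. Col11a2, Col9a3 and Col16a1 together made up 41.5% to 63.7% of all collagen CPM per library.

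Per kilobase of exon the order was headed by the same genes. Col11a2 was at 39.5 to 53.7 CPM per kb over the 6 libraries, Col9a3 at 24.5 to 31.7 and Col16a1 at 9.56 to 16.0. Col11a2 and Col9a3 kept apart from each other and from all genes below them. The range of Col16a1 overlapped those of Col9a2 (3.48 to 15.2 CPM per kb) and Col23a1 (2.53 to 18.6), and these overlapped with Col4a1, Col4a2, Col5a3, Col27a1, Col4a5 and Col1a1 (between 2.88 and 8.27). Col27a1, a fibrillar collagen of cartilage, was at 61.6, 54.7 and 49.9 CPM in WT and at 44.1, 57.1 and 80.3 CPM in KO, so both ends of its range were KO libraries.

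**Figure D1:**
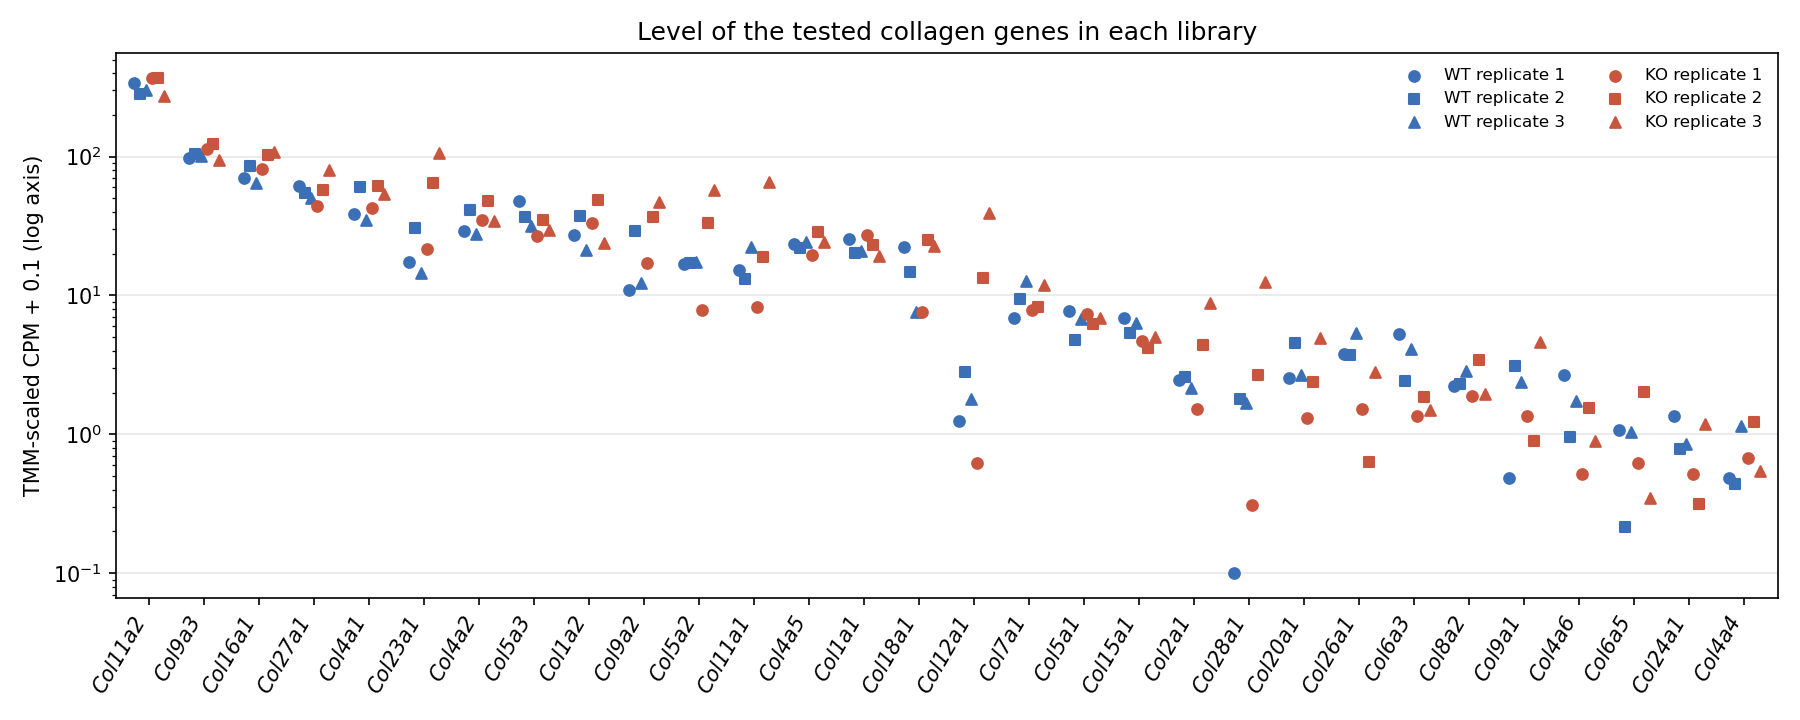
TMM-scaled CPM plus 0.1 on a log axis for the 30 tested collagen genes, ordered by mean level; each point is 1 library, blue for WT and red for KO, with the replicate given by shape. Col11a2 lies highest, at 272 to 369 CPM, and Col12a1 spreads from 0.524 to 39.3 CPM between KO libraries.

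In types XI and IX the chains differed widely in level. In type XI collagen, Col11a2 exceeded Col11a1 by 24.9 to 41.3 times per kb in WT and by 7.66 to 83.4 times in KO. Col2a1, which encodes the type II chain that can also form a chain of type XI, was at 2.35, 2.51 and 2.04 CPM in WT and at 1.41, 4.33 and 8.68 CPM in KO. Col11a2 stood 42.1 to 350 times above it per kb of joined exons, and 26.4 to 219 times with the longest transcript as length. In type IX collagen, Col9a3 exceeded Col9a2 by 1.61 to 7.33 times and Col9a1 by 27.6 to 338 times. Col9a1 was at 0.383 to 4.49 CPM over the 6 libraries.

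The type IV pair Col4a1 and Col4a2, which form the common heterotrimer of basement membranes, stayed close to each other. Col4a1 was at 38.3, 60.4 and 34.9 CPM in WT and at 42.3, 61.7 and 53.4 CPM in KO. Col4a2 was at 29.2, 41.0 and 27.5 CPM in WT and at 35.0, 47.4 and 34.4 CPM in KO. For both genes replicate 2 was highest in its group and the groups overlapped. Their ratio per kb lay between 1.07 and 1.38 in all 6 libraries. The genes stand head to head on chromosome 8, and their first exons overlap on opposite strands (Col4a1 at 11198423 to 11312826 and Col4a2 at 11312805 to 11449287, GRCm38).

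Of the other type IV chains, Col4a5 was at 23.5, 21.9 and 24.2 CPM in WT and at 19.4, 28.6 and 24.0 CPM in KO. Its partner Col4a6, next to it on chromosome X, held 0.419 to 2.57 CPM and lay 10.9 to 54.9 times lower per kb. Col4a4 was at 0.342 to 1.12 CPM and Col4a3 was not tested. In kidney, Col4a3, Col4a4 and Col4a5 build the network of the glomerular filter.

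Type I collagen is the main fibril of skin and bone. Its gene Col1a1 was at 25.5, 20.1 and 20.9 CPM in WT and at 27.1, 23.0 and 19.2 CPM in KO. Col1a2 was at 27.3, 37.5 and 21.3 CPM in WT and at 33.0, 48.4 and 23.6 CPM in KO, where the highest library held about 2.05 times the lowest. The groups of both genes overlapped. The ratio of Col1a1 to Col1a2 per kb was 0.900 to 1.86 with the joined exons of all transcripts as length, and 0.429 to 0.887 with the longest transcript, so which chain is higher depends on the length used. Col3a1, which accompanies type I in most fibrous tissue, held 0, 15 and 0 counts in WT and 0, 0 and 3 in KO. Of type VI collagen, found around fibroblasts and muscle, Col6a1 and Col6a2 were at no more than 0.848 CPM in any library. The receptor Adgrg1, for which type III collagen is a known ligand in the developing brain, was at 495, 597 and 563 CPM in WT and at 540, 612 and 633 CPM in KO.

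In type V collagen, which nucleates fibrils, the rarer chain Col5a3 was above Col5a1 in every library. It was at 47.8, 36.9 and 31.3 CPM in WT and at 26.5, 34.7 and 29.3 CPM in KO, with overlapping groups (log2 ratio -0.36 ± 0.20, SE, edgeR adjusted p = 0.825). Per kb it exceeded Col5a1 by 4.58 to 9.85 times. Col5a2, described further on, stood below Col5a3 per kb in all libraries but KO replicate 3, where it was at 5.99 against 4.31 CPM per kb. Col5a1, which has exons that overlap genes on the opposite strand, was at 4.67 to 7.65 CPM in the 6 libraries.

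**Figure D2:**
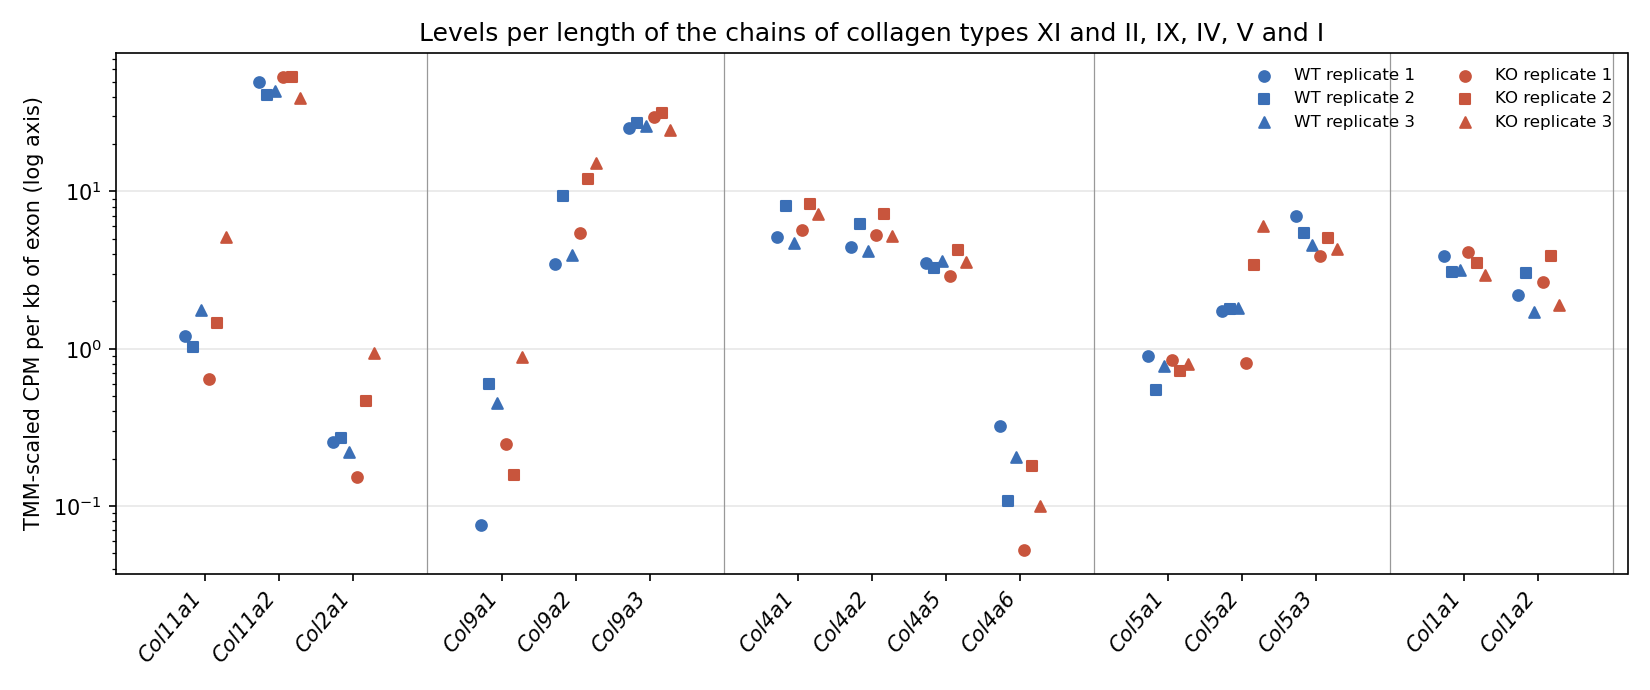
TMM-scaled CPM per kilobase of exon on a log axis for chains of types XI and II, IX, IV, V and I; each point is 1 library, blue for WT and red for KO. With joined exons as length, Col4a1 and Col4a2 lie within 1.07 to 1.38 times of each other in each library. On the same length Col11a2 lies at least 7.66 times above Col11a1.

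Between genotypes, no collagen gene passed the test over all genes. With edgeR at an adjusted p of 0.05, 0 of the 30 tested genes were higher and 0 lower in KO, as were 0% of all 14131 genes tested in either direction. The smallest adjusted p among collagens was 0.713. At an unadjusted p under 0.05, 3 collagens were higher and 2 lower, where the shares over all genes were 2.34% higher, 3.83% lower and 6.16% in either direction. By DESeq2 and by limma voom the number of collagens past an adjusted p of 0.05 was also 0. The log2 fold change was above 0 for 21 of the 30 genes and for 51.9% of all genes, with a median of 0.17 for the collagens and 0.01 for all genes. Leaving out KO replicate 2 gave a median of 0.06 for the collagens, and leaving out KO replicate 1 a median of 0.32.

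Col16a1, a FACIT collagen found near fibrils and basement membranes, was the most abundant of the 5 genes at an unadjusted p under 0.05. It was at 70.5, 85.3 and 64.5 CPM in WT (73.5 ± 10.7, SD, n = 3) and at 81.0, 103 and 108 CPM in KO (97.3 ± 14.3, SD, n = 3). KO replicate 1 lay below WT replicate 2, so the groups overlapped. The log2 ratio was 0.41 ± 0.17 (SE, edgeR unadjusted p = 0.0366, adjusted p = 0.793). It lies on chromosome 4 at 130047840 to 130099283. Without WT replicate 1 or 3, KO replicate 2 or KO replicate 3 its unadjusted edgeR p was 0.101, 0.130, 0.111 and 0.0816. Without WT replicate 2 or KO replicate 1 its unadjusted edgeR p was 0.0174 and 0.0162.

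Col23a1, a transmembrane collagen that can be shed from the cell surface, was at 17.4, 30.7 and 14.5 CPM in WT and at 21.5, 64.9 and 107 CPM in KO. KO replicates 2 and 3 lay above all WT libraries and KO replicate 1 lay within them. Its log2 fold change was 1.63 ± 0.58 (SE, edgeR unadjusted p = 0.0268, adjusted p = 0.789). With KO replicate 3 left out it was 1.05 (edgeR adjusted p = 0.394), and with KO replicate 1 left out 2.03. Its unadjusted edgeR p was 0.0643, 0.109 and 0.111 with WT replicate 1, WT replicate 3 and KO replicate 3 left out in turn. With WT replicate 2, KO replicate 1 and KO replicate 2 left out in turn, that edgeR p was 0.0203, 0.00035 and 0.0491. Col23a1 lies on chromosome 11 at 51289920 to 51583918.

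Col12a1, a FACIT collagen of tendon and of tissue under strain, was at 1.15, 2.74 and 1.69 CPM in WT and at 0.524, 13.2 and 39.3 CPM in KO. The lowest and the highest of the 6 values were both KO libraries. Over all libraries the log2 ratio was 3.25 ± 1.32 (SE, edgeR unadjusted p = 0.0498, adjusted p = 0.803), and it was 1.88 without KO replicate 3 (unadjusted p = 0.135). Without any 1 of the libraries other than KO replicate 1, its unadjusted edgeR p lay between 0.0653 and 0.174. Without KO replicate 1 the unadjusted edgeR p was 7.5e-05 (adjusted p = 0.184). Col12a1 lies on chromosome 9 at 79598991 to 79718831.

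Of the 2 genes on the lower side, Col6a3, a long chain of type VI collagen, was at 5.14, 2.34 and 3.99 CPM in WT and at 1.26, 1.76 and 1.40 CPM in KO. The groups did not overlap. The log2 ratio was -1.37 ± 0.49 (SE, edgeR unadjusted p = 0.0188, adjusted p = 0.713), and its unadjusted p was 0.0772 without WT replicate 1 and 0.0528 without WT replicate 3. In KO replicate 2 the related chain Col6a5, at 1.92 CPM, stood above it. Col26a1, which carries an EMI domain and little triple helix, was at 3.66, 3.65 and 5.23 CPM in WT and at 1.41, 0.534 and 2.69 CPM in KO, again without overlap. For Col26a1 the log2 ratio was -1.43 ± 0.59 (SE, edgeR unadjusted p = 0.0353, adjusted p = 0.793), and its unadjusted p lay above 0.05 without any 1 of the libraries other than KO replicate 3. Col15a1, a multiplexin of basement membranes, was the only other tested collagen whose groups did not overlap, at 6.78, 5.24 and 6.23 CPM in WT and at 4.61, 4.11 and 4.94 CPM in KO. Groups without overlap were thus seen for 3 of 30 collagens and for 11.2% of all genes tested.

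Beside these genes, the sums over oligodendrocyte lineage markers were lower in every KO library than in any WT library. The 10 markers of mature oligodendrocytes summed to 3116 to 4649 CPM in WT and 1940 to 2274 CPM in KO, and the 10 of their precursors to 2549 to 3221 and 1542 to 2145 CPM. In bulk RNA fewer cells of a type and less RNA per cell cannot be told apart, and the part of these cells in the collagen values was not tested.

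Tested collagens of lower level varied with no common direction. Col7a1, the anchoring fibril of skin, was at 6.78 to 12.7 CPM in WT and 7.70 to 11.7 CPM in KO, and Col8a2, a short-chain collagen of the cornea, at 2.13 to 2.74 and 1.78 to 3.31 CPM. Col20a1 ranged from 1.20 to 4.84 CPM over the 6 libraries, Col6a5 from 0.114 to 1.92 CPM and Col24a1 from 0.214 to 1.26 CPM.

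Among the untested genes, Col14a1, a FACIT collagen, was singled out after its values were seen. It held 22, 8 and 5 counts in WT and 0 counts in each KO library. This is at least 12.1-fold lower against a floor of 3 counts over the KO group. With the filter on low counts dropped, its unadjusted edgeR p was under 0.05 and its adjusted p 0.630, the smallest of the 44 collagens. Col19a1, another FACIT gene singled out in the same way, held 2, 0 and 15 counts in WT and 0 in each KO library, at least 5.87-fold lower on the same floor. These bounds cover only the counting error of the 0 counts in KO, and the WT counts were taken as exact. Most counts of each gene came from 1 WT library.

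**Figure D3:**
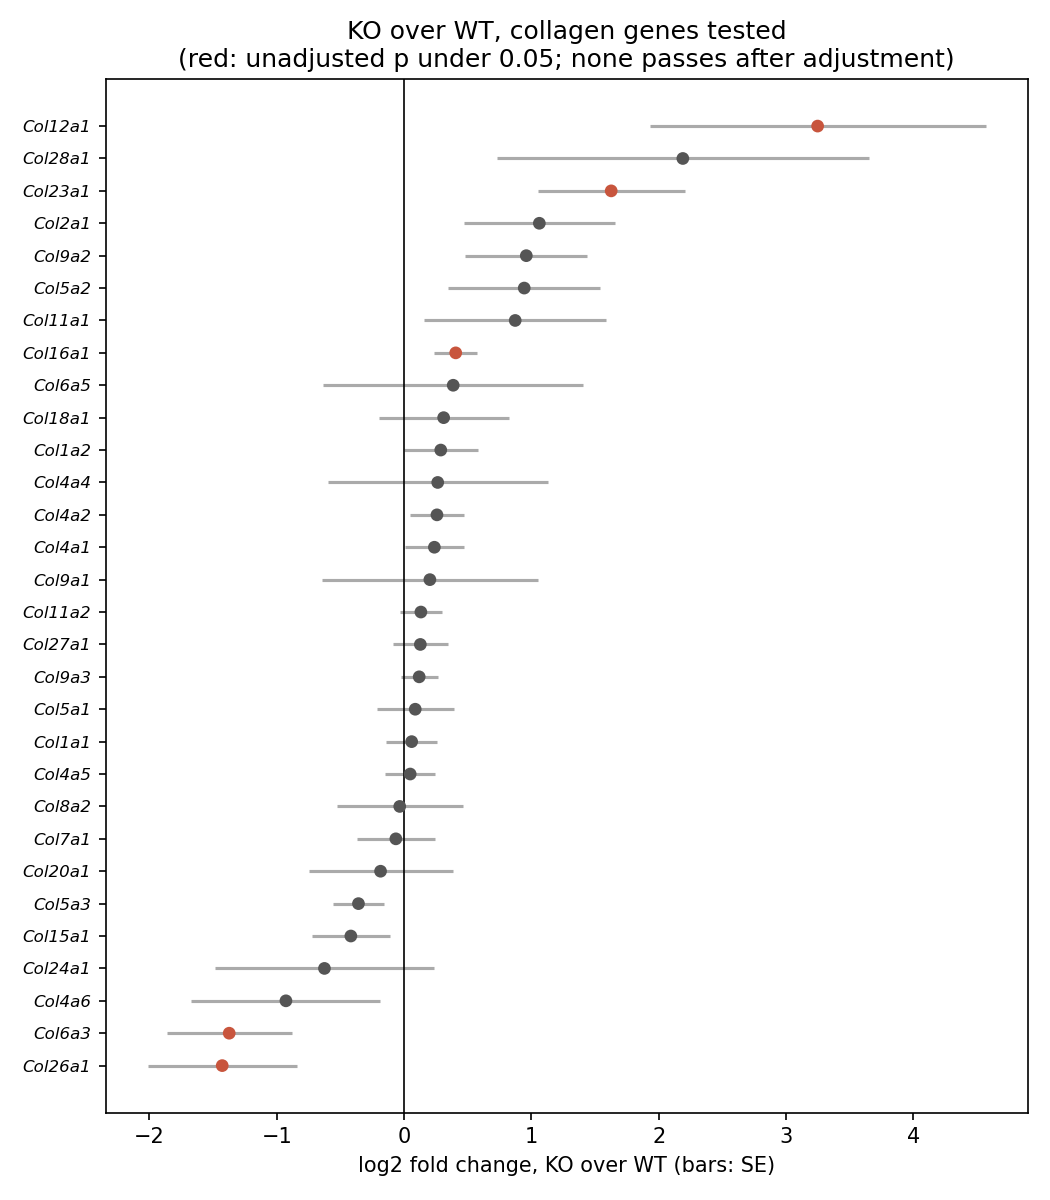
Log2 fold change of KO over WT with its SE (bars) for the 30 tested collagen genes, in red where the unadjusted edgeR p was under 0.05. The values run from -1.43 for Col26a1 to 3.25 for Col12a1. The SE is widest for Col28a1 (1.46) and Col12a1 (1.32), which spread between KO libraries. It is also wide for Col6a5 (1.02), which held 2 to 36 counts per library.

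Several collagens differed widely between libraries of the same genotype. The highest library held at least 2 times the lowest for 16 of the 30 collagens in KO and for 10 in WT. For all genes tested the shares were 21.8% in KO and 18.4% in WT. At a mean of at least 10 CPM, the median of highest over lowest was 1.47 in KO and 1.49 in WT for 15 collagens. For all genes of that level it was 1.34 and 1.30. KO replicate 3 held at least 2 times the CPM of KO replicate 1 for 11 of the 30 collagens, against 11.7% of all genes tested. This comparison of libraries was chosen after the values were seen. KO replicate 3 was the highest KO library for 15 of the 30 collagens, against 37.7% of all genes. At a mean of at least 10 CPM it was highest for 6 of 15 collagens, against 36.3% of genes. KO replicate 2 was highest for 13 of the 30 and KO replicate 1 for 2, against 3607 and 5194 of the 14131 genes. KO replicate 1 was the lowest KO library for 18 of the 30, against 34.2% of all genes. The 11 genes at 2 times or more were Col11a1, Col12a1, Col18a1, Col20a1, Col23a1, Col24a1, Col28a1, Col2a1, Col5a2, Col9a1 and Col9a2. For 8 of them KO replicate 2 lay between the other 2 KO libraries, and for 7 of them WT replicate 2 was the highest WT library.

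Col11a1 was at 15.3, 13.0 and 22.3 CPM in WT and at 8.17, 18.7 and 65.8 CPM in KO, so that KO replicate 1 was the lowest and KO replicate 3 the highest of all 6. Its log2 fold change was 0.87 with all libraries and -0.33 without KO replicate 3. Col5a2, a chain of type V collagen, was at 16.6, 17.1 and 17.3 CPM in WT (SD 0.368, n = 3). In KO it was at 7.80, 32.9 and 57.5 CPM (SD 24.8, n = 3). The log2 ratio was 0.94 ± 0.60 (SE, edgeR adjusted p = 0.831). It came to 0.26 when KO replicate 3 was omitted and to 1.40 when KO replicate 1 was. Col9a2 was at 10.8, 29.1 and 12.2 CPM in WT and at 16.97, 36.9 and 47.2 CPM in KO, with WT replicate 2 inside the KO range. Col28a1, a collagen with von Willebrand factor A domains that has been described in peripheral nerve glia, was at 0, 1.71 and 1.59 CPM in WT and at 0.209, 2.56 and 12.4 CPM in KO. Col18a1, the multiplexin whose end fragment is endostatin, had its spread in both genotypes, at 22.2, 14.7 and 7.52 CPM in WT and at 7.49, 25.2 and 22.5 CPM in KO.

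GC content and length moved with the libraries as well. Relative to the mean over libraries, gene levels correlated with GC content at 0.389, 0.355 and -0.394 in KO replicates 1 to 3. In WT replicates 1 to 3 the values were -0.160, 0.057 and -0.334. With exonic length they were 0.262, -0.204 and 0.259 in WT and -0.336, -0.244 and 0.229 in KO. All are Spearman correlations across genes, which are not independent replicates. With a smooth dependence on GC content and length removed from each library, the same 11 collagens remained at 2 times or more, and the share over all genes was 7.73%. The ratio of KO replicate 3 to KO replicate 1 moved from 75.0 to 56.3 for Col12a1, from 8.05 to 6.21 for Col11a1 and from 4.97 to 5.33 for Col23a1.

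Some genes outside the family were also highest in KO replicate 3. Nid1, which encodes the basement membrane linker nidogen, was at 1.04, 11.5 and 5.43 CPM in WT and at 2.72, 38.3 and 85.7 CPM in KO. Bgn, a small proteoglycan that binds collagen fibrils, was at 6.12, 19.9 and 11.5 CPM in WT and at 11.2, 55.1 and 90.9 CPM in KO. Vtn, Cldn5 and Islr, singled out after their values were seen, were highest in the same library. Vtn, which encodes vitronectin, was at 3.33, 72.8 and 29.0 CPM in WT and at 20.6, 182 and 368 CPM in KO. Within each genotype replicate 1 was the lowest library for these 3 genes.

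Vtn stood on the marker list of pericytes and smooth muscle, Cldn5 on that of endothelial cells and Islr on that of fibroblasts and leptomeningeal cells. The lists were therefore summed with and without them. As these 3 genes were highest in KO replicate 3, leaving them out lowered the sum of that library most. The order of the sums without them is thus no test of the part of these cells. The 12 pericyte and smooth muscle markers summed to 154 to 206 CPM in WT and 211 to 514 CPM in KO, and without Vtn to 133 to 150 and 147 to 190 CPM, with KO replicate 3 the lowest KO library. The 13 endothelial markers summed to 11.3 to 50.9 and 14.7 to 89.6 CPM, and without Cldn5 to 10.5 to 44.8 and 13.5 to 25.2 CPM. The 17 fibroblast and leptomeningeal markers summed to 59.9 to 84.9 and 85.2 to 110 CPM, and without Islr to 55.1 to 59.1 and 42.3 to 67.3 CPM, with KO replicate 3 again lowest. Fbln1, the most abundant of the 17, was at 58.1, 47.3 and 34.2 CPM in KO. With both Islr and Fbln1 left out, the rest of the list summed to 7.76 to 10.1 CPM in WT and to 9.27, 4.86 and 8.13 CPM in KO replicates 1 to 3, with the lowest sum in KO replicate 2. KO replicate 3 was the highest KO library for 2 of the 7 tested markers of this list, 3 of 11 of the pericyte list and 7 of 13 of the endothelial list, and the part of these cells in the collagen values was not tested. Of those 17 markers 12 were under 1 CPM on average, Slc22a6 and Dpep1 had 0 counts in all libraries, and Lum reached 0.149 CPM at most. The 12 astrocyte markers summed to 27991 to 31909 CPM in WT and 31146 to 36584 CPM in KO.

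**Figure D4:**
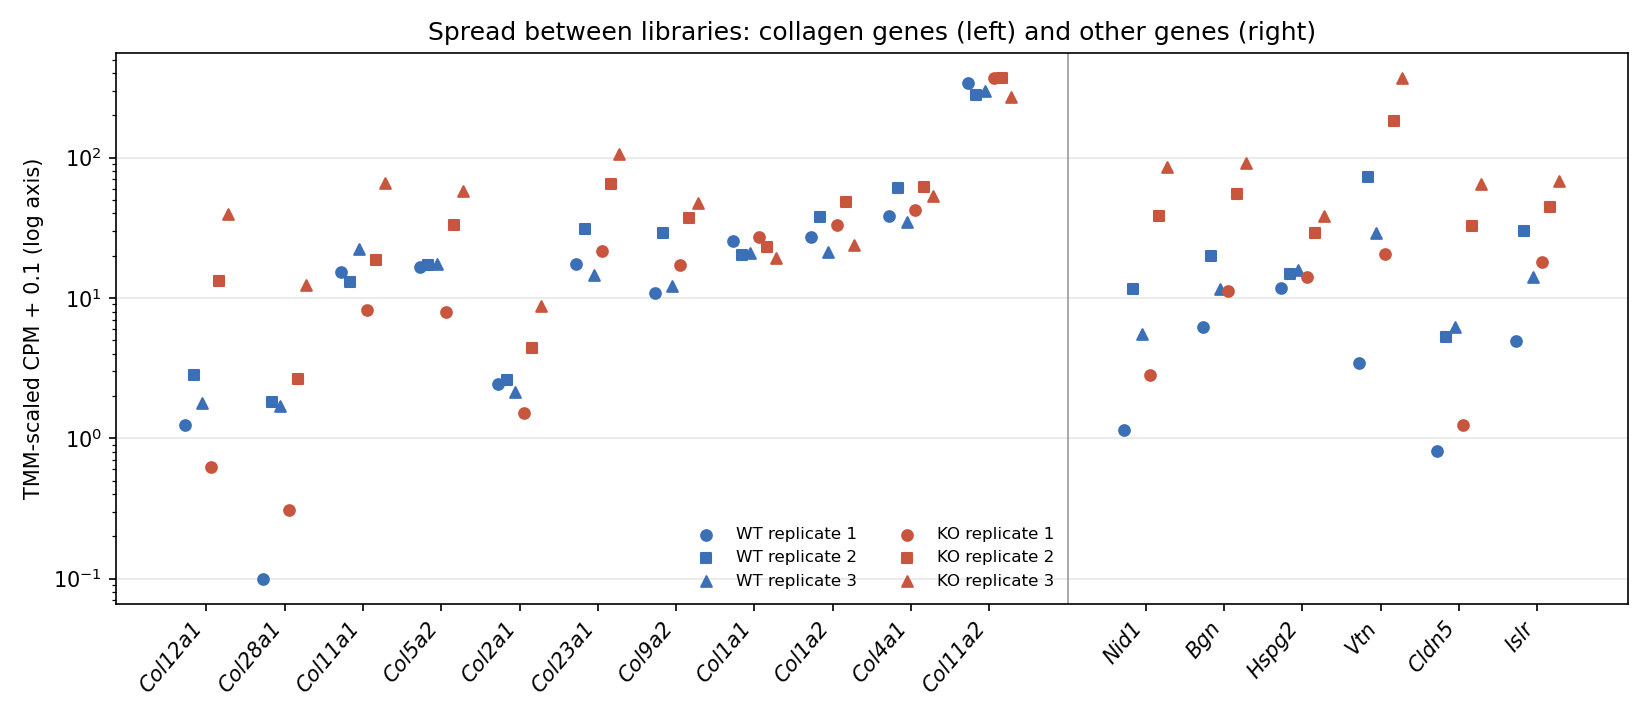
TMM-scaled CPM plus 0.1 on a log axis for 11 collagen genes (left) and 6 other genes (right), 1 point per library. Col12a1, Col11a1, Col5a2 and Col23a1 are highest in KO replicate 3, as are Nid1, Bgn and Vtn, while Col1a1 stays between 19.2 and 27.1 CPM.

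The genes that make and handle collagen were counted from lists. Over all genes tested, the shares at an unadjusted edgeR p under 0.05 were 2.34% higher and 3.83% lower. Of 18 tested genes for modification and folding 1 was higher and 0 lower at an unadjusted p under 0.05, and 0 passed after adjustment in this or any other list here. That gene was P4ha3, a subunit of prolyl 4-hydroxylase, at 8.31, 7.12 and 10.7 CPM in WT and 16.9, 12.3 and 13.8 CPM in KO, without overlap (edgeR unadjusted p = 0.0185, adjusted p = 0.713). The main subunit gene P4ha1 was at 148 to 208 CPM in WT and 154 to 200 CPM in KO, and Plod1, a lysyl hydroxylase, at 124 to 149 and 133 to 148 CPM. Serpinh1, the chaperone HSP47 that binds the triple helix, was at 131, 116 and 181 CPM in WT and at 154, 188 and 239 CPM in KO, with overlapping groups (log2 fold change 0.44 ± 0.21, SE, edgeR adjusted p = 0.819).

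Of 8 tested genes for export and processing 0 were at an unadjusted p under 0.05. Mia2 and Mia3, whose products help load collagen into transport carriers, are listed at 0 in all libraries, but Ctage5, an older symbol of Mia2 in RefSeq, has a row of its own with 676 to 1219 counts. The 0 of Mia2 is thus no measure of its level, and that of Mia3 is uncertain. In the list for cross-linking and assembly 1 of 11 tested genes was higher, which was Bgn (log2 fold change 2.07 ± 0.81, SE, edgeR unadjusted p = 0.0443). Lox, the lysyl oxidase that links fibrils, was not tested and held at most 0.456 CPM. Sparc, a collagen-binding protein that astrocytes secrete, was at 752, 1126 and 690 CPM in WT and at 1216, 1207 and 997 CPM in KO, with WT replicate 2 inside the KO range.

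Among 15 tested basement membrane partners 1 was higher at an unadjusted p under 0.05. Hspg2, which encodes perlecan, was at 11.8, 14.8 and 15.8 CPM in WT and at 14.0, 29.1 and 38.0 CPM in KO and KO replicate 1 lay within WT. Over all 6 libraries the log2 ratio was 0.94 ± 0.33 (SE, edgeR adjusted p = 0.717). Lamc1, the common laminin gamma chain, was at 79.6 to 112 CPM in WT and 60.7 to 114 CPM in KO. KO replicate 3 was the highest KO library for 11 of these 15 genes, against 37.7% of all genes tested. The same held for 7 of 8 tested receptors and 4 of 8 degradation genes. For modification and folding it was 5 of 18, for cross-linking and assembly 4 of 11, and for export and processing 3 of 8. Of 8 tested receptors 1 was higher, the endocytic collagen receptor gene Mrc2, at 4.65, 7.47 and 5.83 CPM in WT and 6.18, 14.6 and 14.8 CPM in KO. Ddr1, a receptor tyrosine kinase for collagen, was at 241 to 245 CPM in WT and 224 to 268 CPM in KO, and Itgb1, the shared chain of the collagen-binding integrins, at 170 to 197 and 118 to 201 CPM. Of 8 tested genes for degradation 1 was lower, the gelatinase gene Mmp2, at 19.4, 11.7 and 19.6 CPM in WT and 11.99, 8.38 and 11.8 CPM in KO.

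Marker lists of other cell types were counted in the same way, against shares over all genes of 2.34% higher and 3.83% lower. At an unadjusted p under 0.05, all 10 mature oligodendrocyte markers were lower in KO, led by Tspan2, Mal, Cldn11, Mog, Mag and Ermn. So were 8 of 10 precursor markers, led by Olig2, Pdgfra, Lhfpl3, Gpr17, Olig1 and Cspg4, and 4 of 12 microglia markers, which were Cx3cr1, Csf1r, Itgam and Tmem119. Higher were 2 of 12 astrocyte markers, Gfap and S100b, 1 of 11 tested pericyte and smooth muscle markers, Notch3, and 1 of 6 tested choroid plexus and ependymal markers, Clic6. For neurons, endothelial cells and fibroblasts the count was 0 of 9, 0 of 13 and 0 of 7 tested.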

How the data were processed

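Libraries were made from poly-A RNA of samples labelled as cultured astrocytes with an NEB kit for paired-end sequencing, per the labels' protocols. The authors deposited 1 table of estimated counts with gene symbols as rows and no normalization. TopHat2, featureCounts and the builds GRCm38 and mm9 are named in the submitters' processing notes, with no roles. All collagen values were whole numbers, and the 0.711% to 0.847% of other values that lay over 0.01 from one were rounded. How reads that match several genes or either strand were counted is not given in the sources used here.

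Genotypes were compared by edgeR 4.0.16 (quasi-likelihood F test, R 4.3.3) on all 14131 genes that passed filterByExpr, with TMM scaling, robust dispersions and Benjamini-Hochberg adjustment over all of them. The SE is the log2 fold change over the root of F. The test was tried on simulated data first. DESeq2 1.42.0, limma 3.58.1 (voom) and the other alternatives are described at the end. Lengths, GC content and positions are from GENCODE M21 (GRCm38), in which all 44 symbols were found. Levels per kb use the joined exons of a gene, with the longest transcript as an alternative. Replicates differed far beyond sampling noise (chi-square divided by its degrees of freedom, 22.3 to 89.1), so none was counted as a duplicate. The collagen genes, the partner and marker lists and the rule for named genes were chosen with earlier results of these data known. By that rule values per library are given for collagens with a mean of at least 10 CPM or an unadjusted p under 0.05, and partners and markers are named for the same p, at most 6 per list, beside 10 fixed partners. Values per library are also given for Col2a1, Col3a1, Col15a1 and Col28a1, which the rule does not cover. Their choice, like that of the genes said to be singled out, was not fixed in advance.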

Additional observations from a re-analysis of the deposited data

How the results depend on the processing

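Over the alternatives run, 0 collagens with an adjusted p passed an adjusted p of 0.05, and the smallest adjusted p of a named collagen was 0.143, for Col26a1 without KO replicate 3. Over all genes, RLE scaling, total counts and a minimum of 1 CPM in 3 libraries each called 0 higher and 0 lower. Dropping the filter on low counts called 2 higher and 4 lower. The counts were 15 and 63 by DESeq2, 1 and 3 with limma voom and quality weights, and 3 and 12 with the trend in GC content and length removed by splines with 4 degrees of freedom. When the filter was dropped, 1 of 44 collagens was higher and 3 lower at an unadjusted p under 0.05. Of 30 collagens, 5 were higher and 2 lower with limma voom, and 1 and 3 with the trend removed. In the same order, the shares over all genes in either direction were 5.76%, 18.9% and 7.07%. The median log2 fold change of the collagens was 0.11 with total counts.

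The replicate number as a block gave 7 genes higher and 37 lower, and 19 and 96 with the trend also removed. The deviations of same-numbered libraries from their group means correlated at 0.087, 0.150 and 0.284, and each library correlated best with its own number. For KO replicate 1 this was nearly a tie, at 0.0873 with WT replicate 1 and 0.0869 with WT replicate 2. Since not every pair passed 0.1, the numbers were not taken to pair the samples, and whether they do was not settled.

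Leaving out each library in turn gave 0 to 4 genes higher and 0 to 27 lower, with the most without KO replicate 3, and 0 collagens called in either direction. Of the collagens 0 to 8 were higher and 0 to 2 lower at an unadjusted p under 0.05. The 8 were found without KO replicate 1, and 0 were higher when WT replicate 1, WT replicate 3 or KO replicate 3 was left out. Over all genes, the share in either direction was 5.04% without KO replicate 1. It was 3.74%, 4.73% and 18.0% without WT replicate 1, WT replicate 3 and KO replicate 3. The median of the collagens ran from 0.060 to 0.32. Of 268 comparisons over 18 named collagens, 258 kept their direction and their side of the threshold and 10 turned. For Col26a1 and Col6a3 DESeq2 gave no adjusted p, so these 2 comparisons are not counted. With total counts Col1a1 was at -0.020 and Col4a5 at -0.024. Over the fits without a library, Col1a1 ran from -0.079 to 0.18, Col4a5 from -0.096 to 0.17, Col18a1 from -0.0075 to 0.73, Col1a2 from -0.018 to 0.52, Col11a1 from -0.33 to 1.32, Col5a2 from 0.26 to 1.40 and Col27a1 from -0.13 to 0.30. The causes were not tested. Genes under about 1 CPM rest on few counts, so a missing difference there was not detectable at this depth. At higher levels too, a missing call is no sign of equal levels. In the main fit 0 of the 14131 genes passed, and Adgrb1 itself did not (edgeR adjusted p = 0.0684). The median coefficient of variation between replicates in that fit was 0.405 for the tested collagens and 0.222 for all genes tested.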
